A study of Mus musculus with 8 samples.

Results

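Terminally differentiated and stem-like CD8+ T cells that lack Cd69 were compared with each other, using the 2 libraries titled Cd69KO term diff and the 2 titled Cd69KO stem-like, which are 4 of the 8 libraries of the series. The series is RNA-seq of CD8+ T cells of BALB/c mice that were sorted live for binding of the AH1 tetramer, a reagent that marks T cells whose receptor recognises the AH1 peptide, an antigen known from BALB/c tumour lines. The labels give 2 genotypes, wild type and Cd69 knockout, the latter written Cd69-deficient from here on, and 2 cell subsets, stem-like and term diff, which makes 4 groups of 2 libraries. The wild-type libraries enter here through the filter, the shared estimate of the spread and the interaction test. Some of their levels and their own subset difference are set beside the Cd69-deficient ones. The gates of the sort, the tumour, the knockout allele, and the age, sex and number of the mice are not given in the sources used here. A surface marker used in the gates would differ between the subsets by the sort itself, and which markers these were cannot be told. Nothing says that the libraries of a group came from separate mice, so p-values measure only the spread between these samples, which may be technical. Of 23746 gene rows, 9782 reached 1 FPKM in at least 2 of the 8 libraries and were tested. FPKM is the authors' expression value, fragment abundance scaled for transcript length and library size.

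CD8+ T cells that meet antigen for a long time, as in tumours, split into a stem-like pool and a terminally differentiated pool. The stem-like cells keep the transcription factor TCF-1, divide to renew themselves and give rise to the other pool. The terminally differentiated cells carry the killing machinery and several inhibitory receptors, and do not return to the stem-like state. CD69 is a surface lectin of early activation that binds the sphingosine-1-phosphate receptor S1PR1 and removes it from the surface, which holds lymphocytes in tissue.

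The targeted gene was low in the Cd69-deficient libraries. Cd69 was at 3.69 and 2.42 FPKM in Cd69-deficient stem-like 1 and 2 and at 2.21 and 2.43 FPKM in Cd69-deficient term diff 1 and 2, against 22.5 and 23.4 FPKM in wild-type stem-like and 10.4 and 12.9 FPKM in wild-type term diff. All 4 Cd69-deficient libraries lay below all 4 wild-type ones. Between the Cd69-deficient subsets Cd69 overlapped and did not pass (log2 difference -0.27 ± 0.17, adjusted p = 0.377). The width of the deposited confidence intervals implied 2055411 to 2456271 fragments in each of the 4 libraries, a measure of counting error alone. Small RNA took 78.1% to 84.5% of the summed FPKM there, but 63.7% and 56.1% in the wild-type replicate 2 libraries. The 2 Cd69-deficient libraries of a subset correlated across genes at r = 0.950 (stem-like) and 0.952 (term diff) on the log scale, and genes are not independent replicates.

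The labelled cell type was checked by its markers. All 8 CD8 T cell markers were kept, none passed, and their summed FPKM was 1237 and 1212 in stem-like and 1504 and 1352 in term diff. Of the markers of γδ T cells, B cells and neutrophils none was kept, and each of these lists summed to at most 1.45 FPKM in any of the 4 libraries. Of 17 macrophage and dendritic cell markers 4 were kept and none passed, with summed FPKM of 9.64 and 9.44 in stem-like and 4.76 and 7.09 in term diff and Csf1r, a defining receptor of macrophages, at most at 0.278 FPKM. Of 13 tumour and stromal markers 2 were kept and both fell, namely Pecam1, an adhesion molecule of endothelium that T cells also carry (13.8 and 12 to 4.7 and 4.23 FPKM, log2 difference -1.34 ± 0.13, adjusted p = 0.000865), and the secreted Igfbp7 (13.3 and 19.4 to 6.19 and 6.26 FPKM, log2 difference -1.25 ± 0.22, adjusted p = 0.0112). The Igfbp7 call was lost when 1 library was left out (adjusted p = 0.0638 without stem-like 2, 0.0658 without term diff 1 and 0.069 without term diff 2). Of 7 markers of CD4 and regulatory T cells 6 were kept and 3 fell (Il2ra, Tnfrsf4 and Cd40lg), and their summed FPKM went from 73.2 and 70.1 to 36.8 and 38.6, while Cd4 itself overlapped (2.53 and 4.12 against 1.4 and 4.01 FPKM). Foxp3, the defining factor of regulatory T cells, was under the filter and not tested, at 1.14 and 0.979 FPKM in stem-like and 0.233 and 0.291 FPKM in term diff, with both stem-like libraries above both term diff ones. Without single libraries the Cd40lg call was lost (adjusted p = 0.075 without stem-like 1, 0.0775 without stem-like 2 and 0.0996 without term diff 2; adjusted p = 0.052 with a pseudocount of 0.1), and so was that of Tnfrsf4 (adjusted p = 0.0964 without stem-like 1, 0.0703 without term diff 1 and 0.0724 without term diff 2). Of 8 natural killer markers only Klre1 and Eomes were kept, and they moved in opposite directions, as given below. In bulk samples fewer cells of a type and less RNA per cell cannot be told apart, and the part of other cells in the results below was not tested.

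In Cd69-deficient cells the term diff libraries had more RNA for granzymes such as Gzmb, for perforin, for the inflammatory chemokines Ccl3, Ccl4 and Ccl5 and for Entpd1, and less for Tcf7 and several other stem-like transcription factors, for Ccr7 and for TNF family ligands such as Tnfsf8. Of 9782 genes 924 passed (9.45%), 380 with a higher level in term diff (3.88%) and 544 with a lower one (5.56%). The test was limma on log2(FPKM + 1), which understates the change of low genes, with Benjamini-Hochberg adjustment over all 9782 genes and a threshold of 0.05. Differences below are term diff minus stem-like on this scale with their standard error, from n = 2 libraries a group. A difference of at least 1 was found for 138 of the higher and 187 of the lower genes. The median size was 0.87 among the higher and 0.84 among the lower genes, while the median over all genes tested was -0.03. In all 924 the term diff and stem-like libraries did not overlap, but neither did they in 24.5% (higher) and 32.4% (lower) of all genes tested. Leaving out each of the 4 libraries in turn kept 81 of the 380 (0.828% of all genes tested) and 154 of the 544 (1.57%) in every case, and without Cd69-deficient stem-like 1 the counts were 109 and 180. After rescaling the libraries to an equal sum of FPKM, which small RNA dominates, 30 passed as higher and 40 as lower. Among the genes named below Tcf7, Slamf6, Ccr7, Myb, Havcr2, Entpd1, Gzmb and Ccl5 still passed then, and 112 of 140 named calls did not, with no change of sign. Unless another value stands beside it, a gene named below as changed also passed without each of the 4 libraries in turn.

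**Figure D1:**
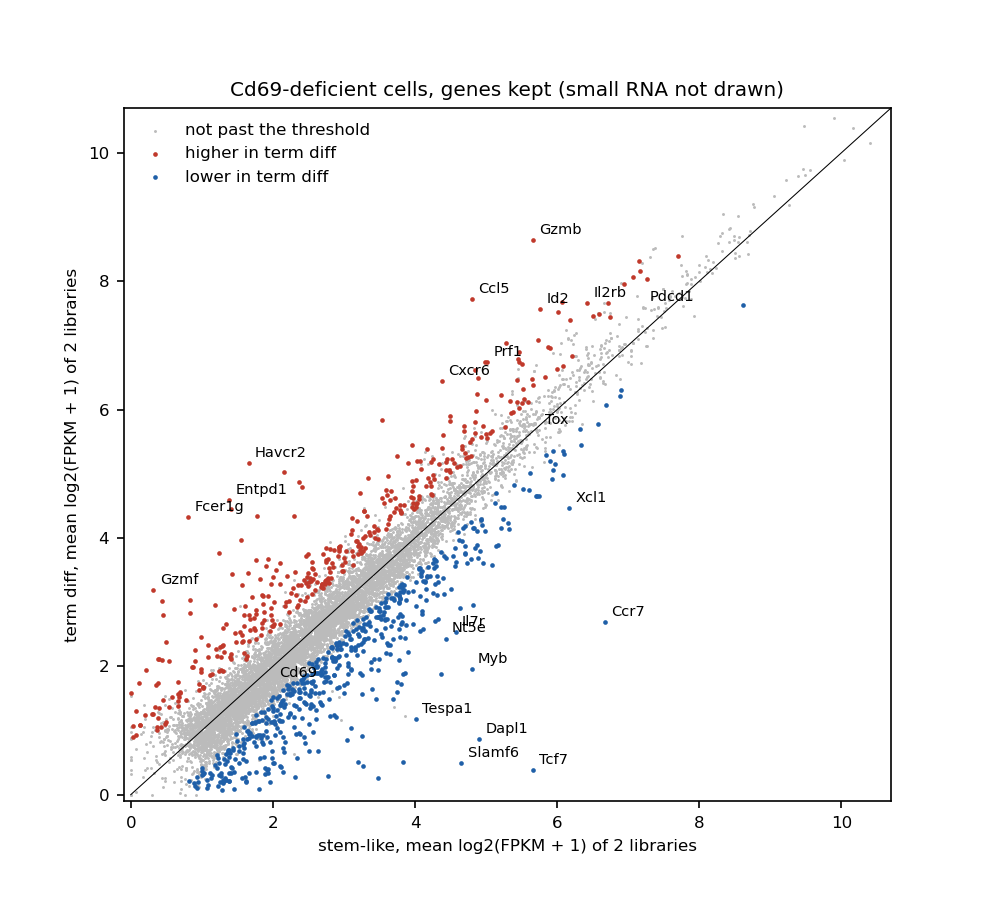
Mean log2(FPKM + 1) of each gene in the 2 Cd69-deficient stem-like libraries (horizontal axis) against the 2 Cd69-deficient term diff libraries (vertical axis), 1 point per gene, with small RNA genes not drawn. Red and blue points are the genes that passed, higher and lower in term diff, and Tcf7, Slamf6, Dapl1 and Ccr7 lie farthest below the line of equality, with Gzmb, Ccl5, Havcr2 and Fcer1g far above it.

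Stem-like transcription factors included the largest fall, that of Tcf7. Of 20 listed factors 19 were kept, 10 fell and 1 rose (57.9% passed, against 9.45% of all genes tested). The median difference was -0.75. Tcf7, which encodes TCF-1, was at 60.5 and 40.6 FPKM in stem-like 1 and 2 and at 0.228 and 0.376 FPKM in term diff 1 and 2 (log2 difference -5.28 ± 0.19, adjusted p = 2.14e-05). That fall was larger than that of any other gene outside small RNA among those averaging at least 5 FPKM in a subset, and both term diff libraries were below 1 FPKM. Myb, a regulator of progenitor self-renewal, went from 31.2 and 23.1 to 2.88 and 2.9 FPKM (log2 difference -2.84 ± 0.17, adjusted p = 7.41e-05). Bcl6, a repressor that opposes effector differentiation, went from 8.79 and 6.43 to 0.939 and 1.16 FPKM (log2 difference -2.06 ± 0.16, adjusted p = 0.000267), and Bach2, which restrains activation programmes, from 11.2 and 9.14 to 2.62 and 3.06 FPKM (log2 difference -1.54 ± 0.16, adjusted p = 0.000935). The E protein Tcf12 was at 12.5 and 13.2 and 5.98 and 6.12 FPKM (log2 difference -0.98 ± 0.13, adjusted p = 0.00301). In each of these 5 genes both stem-like libraries were above both term diff ones.

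The other calls among the stem-like factors were each lost without at least 1 of the 4 libraries, a fit that leaves 1 library in a subset. Lef1, the partner of TCF-1, fell from 3.51 and 3.3 to 0.694 and 1.05 FPKM (log2 difference -1.24 ± 0.19, adjusted p = 0.00599), with adjusted p = 0.0513 without stem-like 1. Klf2, which drives S1pr1, fell from 11.8 and 6.07 to 2.51 and 2.77 FPKM (log2 difference -1.39 ± 0.26, adjusted p = 0.0134), with adjusted p = 0.0811 without term diff 1 and 0.0715 without term diff 2. Eomes fell from 5.39 and 4.82 to 1.32 and 1.71 FPKM (log2 difference -1.28 ± 0.25, adjusted p = 0.0168), and its call was lost without any 1 of the 4 libraries (adjusted p = 0.109 without stem-like 1, 0.0645 without stem-like 2, 0.0992 without term diff 1 and 0.0689 without term diff 2). The rise belonged to Fli1, an ETS factor (log2 difference 0.7, adjusted p = 0.0797 without stem-like 1 and 0.0601 without term diff 1). Ets1, another ETS factor and the most abundant member that did not pass, overlapped at 67.7 and 58.6 and 71.6 and 62.8 FPKM.

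Factors of effector and exhausted cells moved in both directions. Of 26 listed, 22 were kept, 9 rose and 4 fell (59.1% passed, against 9.45% of all genes tested). The median was 0.05 (-0.06 after quantile normalization and -0.31 after rescaling to an equal sum). Id2, an inhibitor of E proteins, was at 50.1 and 56.7 FPKM in stem-like and 207 and 171 FPKM in term diff (log2 difference 1.8 ± 0.17, adjusted p = 0.000758). Prdm1, which encodes the repressor BLIMP-1, was at 2.45 and 2.1 and 8.11 and 6.81 FPKM (log2 difference 1.37 ± 0.16, adjusted p = 0.00191). The Ikaros family member Ikzf3 went from 20.4 and 19.8 to 52.6 and 43.1 FPKM (log2 difference 1.21 ± 0.15, adjusted p = 0.00231) and Irf8 from 17.3 and 19 to 39 and 34.1 FPKM (log2 difference 0.97 ± 0.12, adjusted p = 0.00268). These 4 did not overlap between the subsets. Tbx21, which encodes T-bet, was at 26.5 and 26.3 and 46.6 and 42 FPKM (log2 difference 0.72 ± 0.12, adjusted p = 0.00815), with adjusted p = 0.0671 without stem-like 1, 0.0547 without stem-like 2 and 0.0583 without term diff 1.

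Several factors of the same list that are linked to exhaustion or to strong receptor signalling did not pass or fell. Tox, the factor that establishes the exhausted state, was at 51.2 and 53.6 FPKM in stem-like and 52.3 and 48.2 FPKM in term diff, and the pairs overlapped (log2 difference -0.06 ± 0.17, adjusted p = 0.855). Nr4a3 was at 160 and 123 and 167 and 132 FPKM (log2 difference 0.08 ± 0.20, adjusted p = 0.848), also overlapping. Irf4, induced by receptor signalling, fell from 16.5 and 16.6 to 10.4 and 7.91 FPKM (log2 difference -0.8 ± 0.16, adjusted p = 0.0168), with adjusted p = 0.099 without stem-like 1, 0.0799 without stem-like 2 and 0.103 without term diff 2. Of the 11 AP-1 genes kept 4 fell and none rose (36.4% passed, against 9.45% of all genes tested). The clearest were Jun (38 and 40 to 17.7 and 15.4 FPKM, log2 difference -1.19 ± 0.15, adjusted p = 0.0026) and Atf3 (3.74 and 3.73 to 1.63 and 1.15 FPKM, log2 difference -0.99 ± 0.15, adjusted p = 0.00543). Junb, the most abundant AP-1 gene, was at 137 and 124 and 125 and 114 FPKM and did not pass (log2 difference -0.13 ± 0.15, adjusted p = 0.641).

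Of 24 genes of the early T cell receptor response, all kept, 8 fell and 1 rose (median -0.25). The share that passed was 37.5%, against 9.45% of all genes tested. Egr3, a zinc finger factor induced within the first hours of stimulation, fell from 4.98 and 4.38 to 0.859 and 1.47 FPKM (log2 difference -1.4 ± 0.18, adjusted p = 0.00308). Cd83, a surface molecule of activated lymphocytes, fell from 5.39 and 6.38 to 0.179 and 0.263 FPKM (log2 difference -2.49 ± 0.15, adjusted p = 7.48e-05). Dusp6, a phosphatase that turns off ERK, fell from 24.6 and 25.6 to 13.5 and 11.4 FPKM (log2 difference -0.96 ± 0.12, adjusted p = 0.00242), and Rel, an NF-κB subunit, from 35.2 and 38.9 to 21.2 and 21.3 FPKM (log2 difference -0.78 ± 0.11, adjusted p = 0.00503). The single rise was another ERK phosphatase, Dusp5 (47.3 and 39.6 to 123 and 91.3 FPKM, log2 difference 1.27 ± 0.20, adjusted p = 0.00665, adjusted p = 0.0514 without stem-like 2). These ERK phosphatases differed in opposite directions.

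Inhibitory receptors did not move as a block. Of 16 kept, 4 rose and 3 fell (43.8% passed, against 9.45% of all genes tested), and the median was -0.05. Havcr2, which encodes TIM-3, was at 2.03 and 2.29 FPKM in stem-like and 39.8 and 30.8 FPKM in term diff (log2 difference 3.51 ± 0.15, adjusted p = 3.32e-05), with Fcer1g the largest rise outside small RNA among genes averaging at least 5 FPKM in a subset. Cd244, the SLAM family receptor 2B4, rose from 0.294 and 0.266 to 2.15 and 2.37 FPKM (log2 difference 1.35 ± 0.14, adjusted p = 0.000989), and Cd200r1, the receptor of CD200, from 1.38 and 1.68 to 5.04 and 5.67 FPKM (log2 difference 1.33 ± 0.15, adjusted p = 0.00175). Its ligand Cd200, also on the list, fell from 18.6 and 21.9 to 8.1 and 7.43 FPKM (log2 difference -1.27 ± 0.15, adjusted p = 0.00177). Receptor and ligand of this pair therefore differed in opposite directions.

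The most abundant inhibitory receptor, Pdcd1, which encodes PD-1, was at 146 and 149 FPKM in stem-like and 200 and 184 FPKM in term diff. The term diff pair was higher, but the difference did not pass (log2 difference 0.38 ± 0.16, adjusted p = 0.2). Ctla4 (100 and 92.8 against 107 and 75.1 FPKM, log2 difference -0.1 ± 0.19, adjusted p = 0.769) and Tigit (80.4 and 75.6 against 97 and 78.3 FPKM, log2 difference 0.16 ± 0.18, adjusted p = 0.636) overlapped. Lilrb4, an inhibitory immunoglobulin-like receptor, rose from 2.63 and 2.14 to 17 and 7.93 FPKM (log2 difference 1.91 ± 0.33, adjusted p = 0.0103), with adjusted p = 0.0543 without stem-like 1 and 0.0598 without stem-like 2. Reads of Lilrb4 and of its neighbour Gp49a may be shared, since 19.2% and 16.8% of the 76-base windows of their transcripts are identical to a window of the other gene. Btla (log2 difference -0.94; adjusted p = 0.0845 without stem-like 1 and 0.072 without term diff 2) and Cd160 (log2 difference -0.78; adjusted p = 0.0509 without stem-like 1, 0.104 without stem-like 2 and 0.113 without term diff 2) fell.

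The enzymes that handle extracellular ATP and adenosine differed by step. Of 8 kept members of this pathway 62.5% passed, against 9.45% of all genes tested. Entpd1 encodes CD39, which degrades ATP to AMP, and was at 1.31 and 1.95 FPKM in stem-like and 25.7 and 20.7 FPKM in term diff (log2 difference 3.21 ± 0.17, adjusted p = 6e-05). Nt5e encodes CD73, which turns AMP into adenosine, and was at 20.3 and 20.8 and 4.04 and 4.76 FPKM (log2 difference -2.0 ± 0.12, adjusted p = 7.48e-05). The first was higher and the second lower in both term diff libraries. Ada, the enzyme that removes adenosine, rose from 0.899 and 1.08 to 4.64 and 4.3 FPKM (log2 difference 1.46 ± 0.16, adjusted p = 0.00125), and Cd38, an NAD-consuming ectoenzyme, from 1.99 and 2.41 to 5.08 and 4.79 FPKM (log2 difference 0.9 ± 0.13, adjusted p = 0.00437). The nucleoside transporter Slc29a1 fell (log2 difference -0.98; adjusted p = 0.0585 without stem-like 2 and 0.057 without term diff 2), so 3 of 8 kept members rose and 2 fell.

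**Figure D2:**
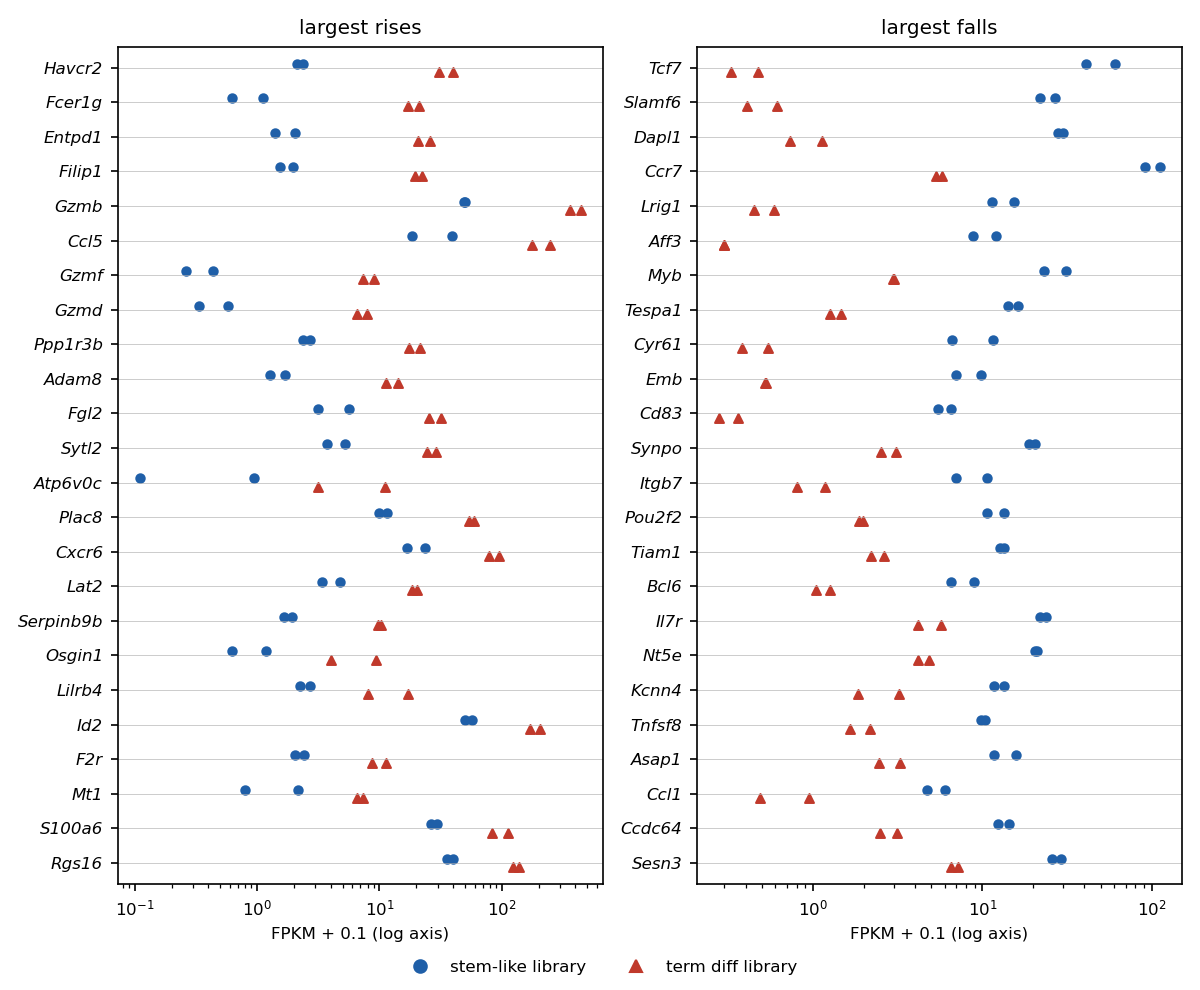
FPKM + 0.1 (log axis) in each of the 2 stem-like (blue circles) and 2 term diff (red triangles) Cd69-deficient libraries, for 24 of the 25 largest rises and 24 of the 25 largest falls among genes that averaged at least 5 FPKM in a subset, with small RNA and unnamed gene models left out. In each gene drawn the circles and triangles do not overlap. On the right Tcf7 and Slamf6 are among the genes with all triangles below 1, as are Lrig1, Aff3, Emb and Cd83.

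Granzymes and perforin held the largest share of rises of any list. Of 11 listed, 9 were kept, 6 rose and none fell, and 5 of the 6 passed without each library in turn. The median was 1.72, and 66.7% of the members kept passed, against 9.45% of all genes tested. Gzmb, the most abundant granzyme here and a protease that starts apoptosis in target cells, was at 49.3 and 49.5 FPKM in stem-like and 440 and 358 FPKM in term diff (log2 difference 2.98 ± 0.17, adjusted p = 6.28e-05). Prf1, the pore that lets granzymes in, was at 27.7 and 35.3 and 109 and 103 FPKM (log2 difference 1.72 ± 0.17, adjusted p = 0.000865). Both pairs of term diff libraries were above both stem-like pairs.

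The granzyme genes beside Gzmb on chromosome 14 went from near 0 to a low level. Gzmf was at 0.165 and 0.335 FPKM in stem-like and 7.31 and 8.95 FPKM in term diff (log2 difference 2.87 ± 0.15, adjusted p = 6e-05). Gzmd was at 0.238 and 0.483 and 6.39 and 7.83 FPKM (log2 difference 2.58 ± 0.24, adjusted p = 0.000758), and Gzme at 0.404 and 0.41 and 4.4 and 3.96 FPKM (log2 difference 1.88 ± 0.26, adjusted p = 0.00414). Gzmc was lower still (0.318 and 0.162 and 1.4 and 1.37 FPKM, log2 difference 0.95 ± 0.16, adjusted p = 0.00941; adjusted p = 0.0601 without stem-like 2, 0.0673 without term diff 1 and 0.0711 without term diff 2; adjusted p = 0.0613 with a pseudocount of 0.1). Wild-type term diff had 0.705 and 1.05 FPKM of Gzmd, and the test of the difference between genotypes did not pass for it (interaction 2.03, adjusted p = 0.303). Gzma, Gzmk and Gzmm did not pass (log2 difference -0.5, log2 difference -0.28 and log2 difference -0.23). Of the 76-base windows, 5.4% of those of Gzmd, 4.4% of Gzme and none of Gzmb or Gzmf are identical to a window of another granzyme gene. Windows that differ by a few bases were not counted, so sharing of reads between these paralogs was not tested.

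The bases upstream of 3 of these genes, Gzmb, Gzmd and Gzmf, are shown, and all 3 genes rose. The sequences are the 250 bases before the RefSeq start (GRCm38.p6), all on the minus strand of chromosome 14, and capitals mark RUNX letters (TGTGGT on either strand), AP-1 letters (TGANTCA, the same on both strands) and CRE letters (TGACGTCA, the same on both strands). They lie at chr14:56262335-56262584 for Gzmb, chr14:56132594-56132843 for Gzmd and chr14:56211408-56211657 for Gzmf.
Gzmb: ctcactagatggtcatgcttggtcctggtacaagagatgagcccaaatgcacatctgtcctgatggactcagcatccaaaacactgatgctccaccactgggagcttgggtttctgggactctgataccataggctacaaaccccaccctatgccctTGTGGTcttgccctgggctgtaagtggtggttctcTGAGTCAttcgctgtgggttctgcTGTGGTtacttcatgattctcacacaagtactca
Gzmd: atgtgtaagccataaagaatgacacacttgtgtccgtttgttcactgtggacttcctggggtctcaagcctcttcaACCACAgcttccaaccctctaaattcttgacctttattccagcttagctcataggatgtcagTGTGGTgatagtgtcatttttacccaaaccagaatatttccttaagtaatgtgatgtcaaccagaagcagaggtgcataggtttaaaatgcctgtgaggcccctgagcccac
Gzmf: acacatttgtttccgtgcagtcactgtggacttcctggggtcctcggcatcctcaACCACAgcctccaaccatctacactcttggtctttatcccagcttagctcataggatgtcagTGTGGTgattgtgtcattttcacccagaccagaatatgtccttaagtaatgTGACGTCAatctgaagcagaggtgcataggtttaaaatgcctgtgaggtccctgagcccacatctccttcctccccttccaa
The windows of Gzmd and Gzmf were identical at 74.5% of aligned positions and those of Gzmd and Gzme at 94.8%, while Gzmb shared 44.1% to 47.5% with the 4 others. RUNX letters occurred in each of the 3 windows printed and in 13.2% of the 6890 genes kept that have a window, AP-1 letters in Gzmb and in 5.02%, and CRE letters in Gzmf and in 3.38%. A match describes letters and is not a site.

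Genes that carry and release granules rose in part. Of 19 kept, 6 rose and 1 fell (36.8% passed, against 9.45% of all genes tested). The median was 0.20, and -0.16 after rescaling to an equal sum. Sytl2, a synaptotagmin-like protein that docks granules through RAB27A, was at 3.66 and 5.1 FPKM in stem-like and 29 and 24.5 FPKM in term diff (log2 difference 2.38 ± 0.16, adjusted p = 0.000145), and Ctsd, a lysosomal protease, at 37.8 and 48.9 and 129 and 109 FPKM (log2 difference 1.44 ± 0.17, adjusted p = 0.00173). Both rises passed without each library. Rab27a itself rose from 12.5 and 16.8 to 26.4 and 24.9 FPKM (log2 difference 0.78 ± 0.15, adjusted p = 0.0174), with adjusted p = 0.123 without stem-like 1, 0.0941 without term diff 1 and 0.0789 without term diff 2, and the granule membrane protein Nkg7 from 91.6 and 100 to 198 and 162 FPKM (log2 difference 0.9 ± 0.17, adjusted p = 0.0141), with adjusted p = 0.114 without stem-like 1, 0.0589 without stem-like 2 and 0.0908 without term diff 1, and 0.152 after quantile normalization. Serpinb9, which protects the killer cell from its own granzyme B, rose (log2 difference 0.72; adjusted p = 0.129 without stem-like 1, 0.0596 without stem-like 2 and 0.0947 without term diff 1). Serpinb9b, a relative outside that list, was at 1.55 and 1.85 and 10.2 and 9.57 FPKM (log2 difference 2.01 ± 0.18, adjusted p = 0.00056).

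Fcer1g, a signalling chain that can pair with the T cell receptor complex and with NK receptors, was at 1.02 and 0.52 FPKM in stem-like and 17.1 and 21.1 FPKM in term diff (log2 difference 3.51 ± 0.17, adjusted p = 4.21e-05). It was the only one of 12 kept genes of the T cell receptor complex and Fc chains to pass (8.33%, near the 9.45% of all genes tested). Of the NK lectin-like receptors kept, 18.2% passed. Cd3e (234 and 210 against 220 and 204 FPKM) and Cd8a (144 and 155 against 166 and 129 FPKM) overlapped. Of 11 kept NK lectin-like receptors 2 rose, Klre1 (14.1 and 17.6 to 36.4 and 34.7 FPKM, log2 difference 1.12 ± 0.15, adjusted p = 0.00325) and Klrc3 (7.8 and 9.83 to 23.6 and 17.6 FPKM, log2 difference 1.13 ± 0.22, adjusted p = 0.0159; adjusted p = 0.121 without stem-like 1 and 0.0993 without term diff 1), and 25.3% of the 76-base windows of Klrc3 are shared with a relative. Lat2, an adaptor related to the T cell adaptor LAT, rose from 3.3 and 4.65 to 20.1 and 18.3 FPKM (log2 difference 2.03 ± 0.21, adjusted p = 0.00116).

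Chemokine receptors moved in both directions, with 5 rises and 4 falls among 11 kept (81.8% passed, against 9.45% of all genes tested). Ccr7, which leads T cells into lymph nodes, was at 112 and 91.4 FPKM in stem-like and 5.23 and 5.69 FPKM in term diff (log2 difference -3.98 ± 0.20, adjusted p = 4.21e-05). Ccr6 was at 2.95 and 2.83 and 0.16 and 0.125 FPKM (log2 difference -1.77 ± 0.13, adjusted p = 0.000262). Cxcr6, the receptor of CXCL16, was at 16.6 and 23.6 and 94.6 and 78.4 FPKM (log2 difference 2.06 ± 0.18, adjusted p = 0.000559). None of these 3 overlapped between the subsets.

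Other receptor calls were lost without single libraries. Ccr2 (log2 difference 1.3; adjusted p = 0.0558 without stem-like 2 and 0.0678 without term diff 1), Ccrl2 (log2 difference 1.1; adjusted p = 0.0642 without stem-like 1) and Cx3cr1 (log2 difference 0.82; adjusted p = 0.0522 without stem-like 1, 0.114 without stem-like 2, 0.11 without term diff 1 and 0.0789 without term diff 2) rose. Cxcr4 fell from 7.5 and 3.08 to 1.15 and 0.792 FPKM (log2 difference -1.58 ± 0.34, adjusted p = 0.0233; adjusted p = 0.105 without stem-like 1, 0.0829 without term diff 1 and 0.132 without term diff 2). Cxcr5 fell from about 1 FPKM (1.11 and 0.734 to 0.096 and 0.0529 FPKM, log2 difference -0.83; adjusted p = 0.196 without stem-like 1, 0.0607 without stem-like 2, 0.113 without term diff 1 and 0.146 without term diff 2; adjusted p = 0.0535 with a pseudocount of 0.1). Cxcr3 had the largest difference of a member that did not pass (10.3 and 7.31 against 4.7 and 3 FPKM, log2 difference -1.02 ± 0.28, adjusted p = 0.0596; adjusted p = 0.047 in a fit of the 4 Cd69-deficient libraries alone).

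Of 14 listed genes of egress and recirculation 10 were kept, 5 fell and 1 rose, with a median of -1.03. The share that passed was 60%, against 9.45% of all genes tested. Itgb7, an integrin chain used for homing to gut and its lymphoid tissue, was at 10.6 and 6.92 FPKM in stem-like and 0.703 and 1.08 FPKM in term diff (log2 difference -2.35 ± 0.20, adjusted p = 0.000537). Ramp3, a co-receptor of the adrenomedullin receptor, fell from 4.45 and 2.67 to 0.683 and 0.501 FPKM (log2 difference -1.49 ± 0.19, adjusted p = 0.00261). S1pr1, the egress receptor that CD69 binds, was under the filter at 1.65 and 0.960 FPKM in stem-like and 0.0410 and 0.180 FPKM in term diff and was not tested. S1pr4 overlapped at 6.37 and 4.69 and 5.55 and 4.37 FPKM.

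**Figure D3:**
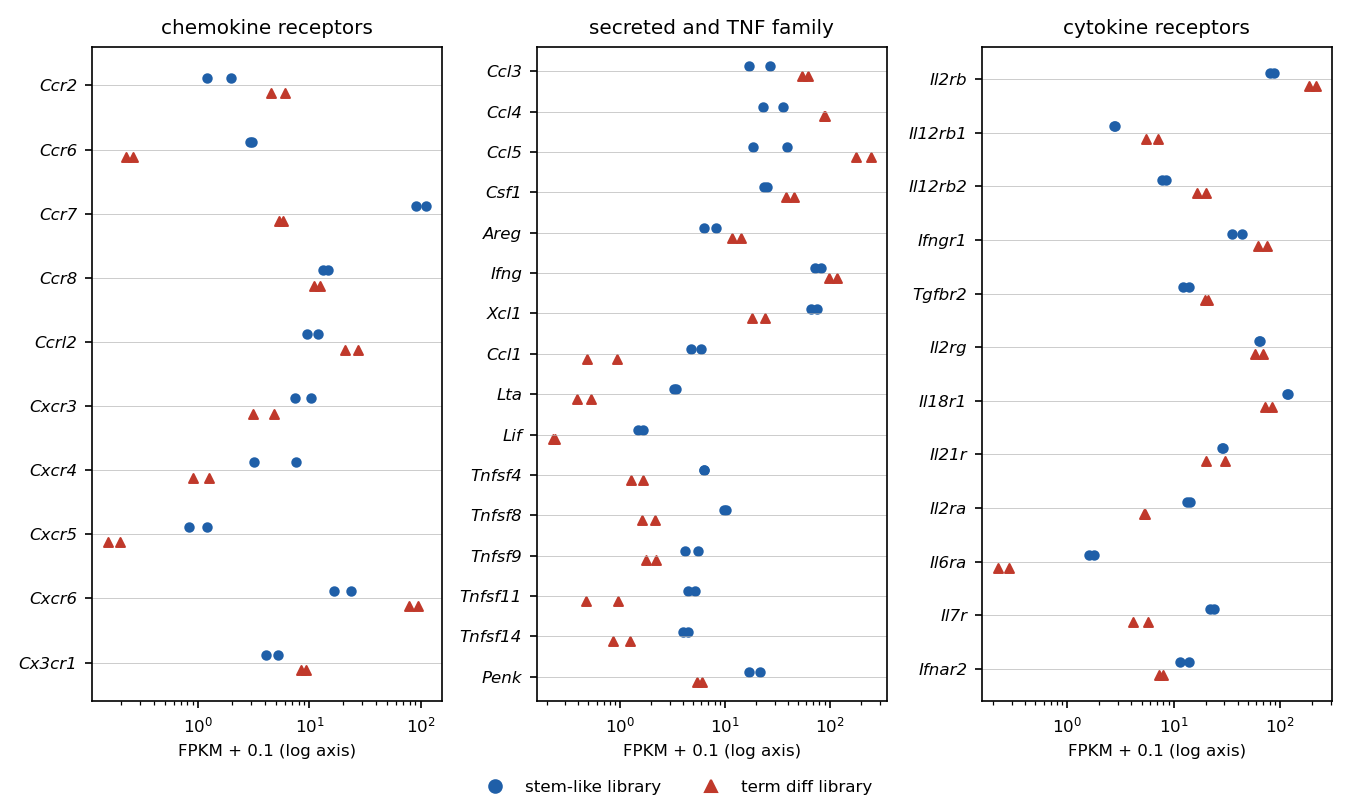
FPKM + 0.1 (log axis) of 10 chemokine receptors and of secreted and TNF family proteins and cytokine receptors in the 2 stem-like (blue circles) and 2 term diff (red triangles) Cd69-deficient libraries. Ccr7 and Cxcr6 lie on opposite sides, Ccl3, Ccl4 and Ccl5 have their triangles to the right, and the 5 Tnfsf genes drawn have theirs to the left.

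Of 7 kept chemokine ligands 3 rose and 2 fell (71.4% passed, against 9.45% of all genes tested). Ccl5 was at 39.1 and 18.4 FPKM in stem-like and 248 and 177 FPKM in term diff (log2 difference 2.92 ± 0.36, adjusted p = 0.00234), Ccl4 at 35.7 and 23 and 88.1 and 89.8 FPKM (log2 difference 1.6 ± 0.20, adjusted p = 0.00244) and Ccl3 at 27.2 and 17.1 and 54.9 and 62.4 FPKM (log2 difference 1.4 ± 0.21, adjusted p = 0.00562). These 3 are inflammatory chemokines, and none overlapped between the subsets. Xcl1, which attracts cross-presenting dendritic cells, was at 66.3 and 76 and 18.3 and 24.4 FPKM (log2 difference -1.7 ± 0.21, adjusted p = 0.00244). Ccl1 fell from 4.63 and 5.88 to 0.385 and 0.847 FPKM (log2 difference -1.96 ± 0.31, adjusted p = 0.00699; adjusted p = 0.0546 without term diff 1).

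Among cytokines and TNF family ligands 8 of 20 kept fell and 3 rose (median -0.57). The share that passed was 55%, against 9.45% of all genes tested. Tnfsf8, the CD30 ligand, was at 10.2 and 9.68 FPKM in stem-like and 1.54 and 2.08 FPKM in term diff (log2 difference -1.97 ± 0.13, adjusted p = 0.000145), and Tnfsf4, the OX40 ligand, at 6.2 and 6.3 and 1.56 and 1.18 FPKM (log2 difference -1.62 ± 0.15, adjusted p = 0.000682). Tnfsf11, which encodes RANKL, was at 5.09 and 4.36 and 0.855 and 0.377 FPKM (log2 difference -1.84 ± 0.20, adjusted p = 0.00133). Tnfsf14, which encodes LIGHT (4.36 and 3.93 to 0.771 and 1.16 FPKM, log2 difference -1.4), and Lta, lymphotoxin alpha (3.35 and 3.2 to 0.294 and 0.432 FPKM, log2 difference -1.65), fell too. In these 5 genes both stem-like libraries were above both term diff ones.

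Penk, the precursor of enkephalins, fell from 16.8 and 21.6 to 5.37 and 6.01 FPKM (log2 difference -1.59 ± 0.17, adjusted p = 0.00145) and Lif from 1.55 and 1.38 to 0.129 and 0.142 FPKM (log2 difference -1.12 ± 0.15, adjusted p = 0.00314). Spp1, the secreted phosphoprotein osteopontin, rose from 23.1 and 40.9 to 100 and 112 FPKM (log2 difference 1.75 ± 0.25, adjusted p = 0.00465). Csf1, the growth factor of macrophages, rose from 23.5 and 25.2 to 46.1 and 38.4 FPKM (log2 difference 0.77 ± 0.13, adjusted p = 0.00882; adjusted p = 0.0791 without stem-like 1 and 0.0563 without term diff 1). Ifng, the main effector cytokine of these cells, was at 82.1 and 72.7 FPKM in stem-like and 118 and 98.5 FPKM in term diff, higher in both term diff libraries, and did not pass (log2 difference 0.47 ± 0.16, adjusted p = 0.105). Fasl did not pass either (25.4 and 26.1 against 39.4 and 26.5 FPKM).

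Receptors of the common gamma chain cytokines went in different directions. Il7r, the interleukin 7 receptor of long-lived T cells, was at 23.7 and 21.9 FPKM in stem-like and 5.59 and 4.08 FPKM in term diff (log2 difference -2.04 ± 0.19, adjusted p = 0.000716). Il2ra, the high affinity chain for interleukin 2, was at 13.3 and 14.1 and 5.26 and 5.19 FPKM (log2 difference -1.24 ± 0.18, adjusted p = 0.00543). Il2rb, the chain shared by interleukins 2 and 15, was at 88.4 and 81.1 and 219 and 186 FPKM (log2 difference 1.24 ± 0.19, adjusted p = 0.00642; adjusted p = 0.0522 without stem-like 2 and 0.0528 without term diff 1; adjusted p = 0.252 after quantile normalization). The common chain Il2rg overlapped at 63.6 and 64.3 and 69.3 and 58.8 FPKM.

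Over the 23 kept cytokine receptors 5 rose and 5 fell (median -0.09), and 3 of the falls, but none of the rises, passed without each library. The third such fall was Il6ra (1.52 and 1.69 to 0.184 and 0.122 FPKM, log2 difference -1.18 ± 0.15, adjusted p = 0.00243). Both chains of the interleukin 12 receptor rose, Il12rb1 (log2 difference 0.96; adjusted p = 0.0642 without stem-like 1, 0.0508 without stem-like 2 and 0.0557 without term diff 1) and Il12rb2 (log2 difference 1.08; adjusted p = 0.0946 without stem-like 1, 0.0575 without stem-like 2 and 0.0888 without term diff 1). Of 19 STAT, JAK and SOCS genes 4 fell and none rose. The share that passed was 21.1%, against 43.5% of the cytokine receptors and 9.45% of all genes tested. Jak2, the kinase of the interleukin 12 and interferon gamma receptors, was at 26.9 and 24.1 and 12.2 and 10.3 FPKM (log2 difference -1.12 ± 0.13, adjusted p = 0.00157), and Stat4, which carries the interleukin 12 signal, fell (log2 difference -0.72; adjusted p = 0.126 without stem-like 1, 0.0716 without stem-like 2 and 0.116 without term diff 2). The receptor chains and these signal carriers thus differed with opposite sign.

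Costimulatory receptors passed in 4 of 12 kept (33.3%) and SLAM family genes in 4 of 9 (44.4%), against 9.45% of all genes tested. Slamf6, a surface marker of stem-like cells, was at 26.9 and 21.6 FPKM in stem-like and 0.31 and 0.512 FPKM in term diff (log2 difference -4.16 ± 0.19, adjusted p = 3.7e-05), among the largest falls. Crtam, an adhesion receptor of activated CD8+ T cells, was at 23.9 and 23.7 and 6.64 and 6.41 FPKM (log2 difference -1.72 ± 0.13, adjusted p = 0.000256). Tnfrsf9, which encodes 4-1BB, rose from 45.1 and 45.5 to 71.6 and 69.5 FPKM (log2 difference 0.63 ± 0.12, adjusted p = 0.0173; adjusted p = 0.125 without stem-like 1, 0.0878 without stem-like 2, 0.0921 without term diff 1 and 0.0856 without term diff 2; adjusted p = 0.209 after quantile normalization). Tnfrsf4, which encodes OX40, fell from 50.3 and 45.5 to 25.7 and 26 FPKM (log2 difference -0.86 ± 0.15, adjusted p = 0.0119; adjusted p = 0.0964 without stem-like 1, 0.0703 without term diff 1 and 0.0724 without term diff 2). In the costimulatory list 1 rose and 3 fell, and in the SLAM family list 2 rose and 2 fell.

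Of 15 kept integrins and adhesion molecules 3 rose and 5 fell (53.3% passed, against 9.45% of all genes tested). Itga1, the collagen-binding chain of tissue-resident T cells, was at 0.362 and 0.245 FPKM in stem-like and 3.38 and 3.29 FPKM in term diff (log2 difference 1.74 ± 0.19, adjusted p = 0.00149). Emb, an adhesion molecule of the immunoglobulin family, was at 9.7 and 6.93 and 0.431 and 0.422 FPKM (log2 difference -2.69 ± 0.17, adjusted p = 7.83e-05). Itgav rose from 15.5 and 13.6 to 33 and 25 FPKM (log2 difference 0.94 ± 0.15, adjusted p = 0.00801; adjusted p = 0.0576 without stem-like 2). These sat beside a fall of Itgb7 and no call for Itgal (56.2 and 53.5 against 66.5 and 58.8 FPKM).

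Annexins, S100 proteins, galectins and vimentin, which bind calcium, membranes or sugars or shape the cytoskeleton, had 18 kept members. Of these 8 rose, none fell and 10 did not pass (44.4% passed, against 9.45% of all genes tested). The median was 0.62, and 17 lay above 0 (4488 of all 9782 genes did). Only Lgals3, galectin 3, passed without each library (7.71 and 9.03 to 28.4 and 22 FPKM, log2 difference 1.48 ± 0.19, adjusted p = 0.00265). S100a4 was at 54.8 and 79.2 FPKM in stem-like and 200 and 205 FPKM in term diff (log2 difference 1.61 ± 0.25, adjusted p = 0.00715; adjusted p = 0.0599 without stem-like 1 and 0.0529 without term diff 2), S100a6 at 29.6 and 26.1 and 113 and 83.4 FPKM (log2 difference 1.77 ± 0.31, adjusted p = 0.0112; adjusted p = 0.0599 without stem-like 1, 0.0632 without stem-like 2 and 0.0795 without term diff 1) and Vim at 91.3 and 88.5 and 173 and 178 FPKM (log2 difference 0.96 ± 0.15, adjusted p = 0.00721; adjusted p = 0.0553 without stem-like 1, 0.0523 without stem-like 2 and 0.0529 without term diff 2; adjusted p = 0.0902 after quantile normalization). None of the 18 passed the interaction test.

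Of 30 kept genes of proximal T cell receptor signalling 5 fell and 2 rose (23.3% passed, against 9.45% of all genes tested). Tespa1, an adaptor of calcium signalling in thymocytes and T cells, was at 14.1 and 16.1 FPKM in stem-like and 1.17 and 1.37 FPKM in term diff (log2 difference -2.83 ± 0.12, adjusted p = 3.55e-05). Dgka, which removes the second messenger diacylglycerol, was at 64.6 and 56.6 and 33.9 and 31 FPKM (log2 difference -0.88 ± 0.12, adjusted p = 0.00437). The kinase Lck, the most abundant member, did not pass (85.9 and 91 against 114 and 96.6 FPKM, log2 difference 0.24 ± 0.15, adjusted p = 0.352). Fyn, its relative, fell from 74.3 and 61.7 to 40.8 and 36.8 FPKM (log2 difference -0.79 ± 0.15, adjusted p = 0.0156; adjusted p = 0.127 without stem-like 1, 0.0603 without term diff 1 and 0.105 without term diff 2).

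Regulators of G protein signalling included 3 rises and 1 fall among 12 kept (33.3% passed, against 9.45% of all genes tested). Rgs16, which shortens signals of chemokine receptors, was at 35.5 and 40.2 FPKM in stem-like and 137 and 123 FPKM in term diff (log2 difference 1.76 ± 0.13, adjusted p = 0.000267), and Rgs2 at 20.6 and 19.2 and 43.5 and 38.9 FPKM (log2 difference 1.01 ± 0.12, adjusted p = 0.00223). Rgs10 went the other way (18.4 and 14.4 to 3.79 and 6.46 FPKM, log2 difference -1.53 ± 0.27, adjusted p = 0.0115; adjusted p = 0.0901 without stem-like 1 and 0.0724 without term diff 1). F2r, the thrombin receptor PAR1, a G protein-coupled receptor, was at 1.95 and 2.33 and 11.3 and 8.66 FPKM (log2 difference 1.8 ± 0.15, adjusted p = 0.000523).

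Most genes of oxidative phosphorylation, the proteasome and the ribosome lay above 0, where 4488 of all 9782 genes tested did. Over all genes tested 3.88% rose, against 15.2% of oxidative phosphorylation, 5.56% of proteasome and 6.06% of mitosis genes. Among ribosome and S phase genes none did. Of 46 oxidative phosphorylation genes 42 lay above 0 (median 0.35), 7 rose and none fell, and none of the 7 passed without each library, so no single member is described further. Of 36 proteasome genes 34 lay above 0 (median 0.25) with 2 rises, and of 75 cytosolic ribosome genes 61 lay above 0 (median 0.15) with no call. The 33 genes of S phase had a median of 0.22 with no call, and the 33 of mitosis and G2/M a median of 0.29 with 2 rises. These medians depend on the scaling: after rescaling to an equal sum, which shifts the median of all genes to -0.30, they were 0.00, -0.10, -0.21, -0.09 and -0.03 in that order, and the ribosome median was -0.16 after quantile normalization. Mki67, a protein of dividing cells, was at 40.6 and 52.3 FPKM in stem-like and 54.1 and 62.2 FPKM in term diff, with no overlap between the pairs and no call (log2 difference 0.33 ± 0.17, adjusted p = 0.287).

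In wild-type cells the same lists had other values, and the difference between genotypes was tested for each gene. In wild type 20 of 33 S phase genes and 18 of 33 mitosis genes rose (medians 0.65 and 0.71), where 7.24% of all genes tested rose. At an unadjusted p under 0.05 the interaction was lower in Cd69-deficient cells for 11 S phase and 9 mitosis genes, and higher for none, against 6.36% and 2.73% of all genes. For the ribosome it was higher for 7 genes and lower for none (wild-type median -0.31), and for oxidative phosphorylation higher for 10 and lower for 1 (wild-type median 0.02). After Benjamini-Hochberg adjustment in limma no gene of these lists, or of any other list, passed the interaction test. In wild type small RNA took 80.8% (stem-like) and 79.6% (term diff) of the summed FPKM in replicate 1. It took 63.7% and 56.1% in replicate 2, lower in both subsets, and its part in these values was not tested.

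**Figure D4:**
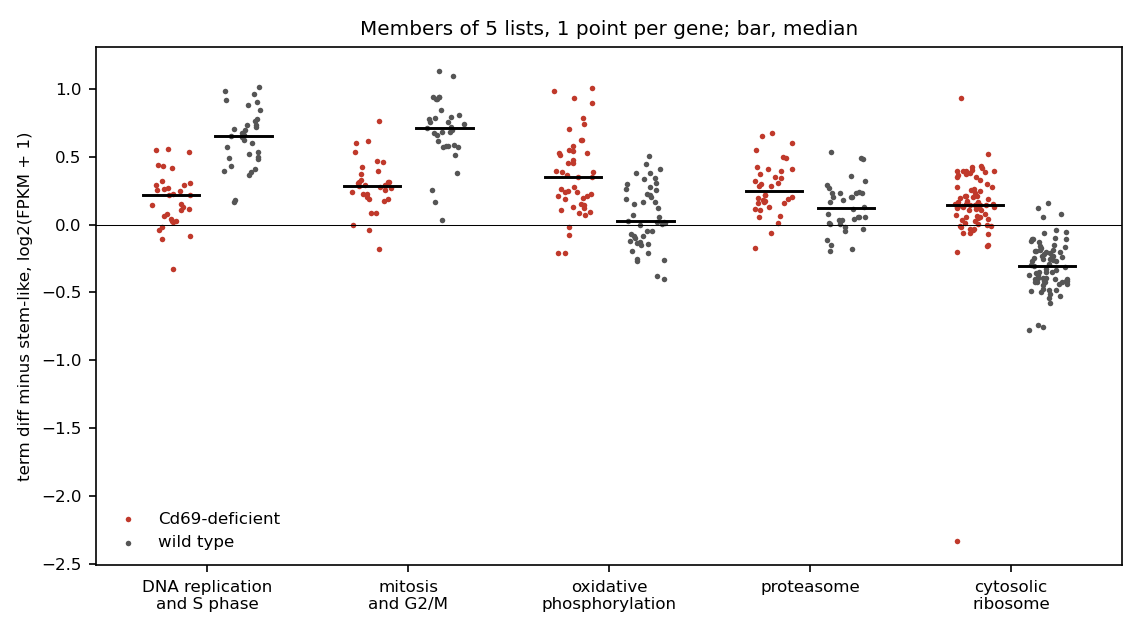
Term diff minus stem-like on the log2(FPKM + 1) scale for the members of 5 lists, 1 point per gene, in Cd69-deficient (red) and wild-type (grey) cells, with a bar at each median. The medians of S phase and mitosis genes lie lower in Cd69-deficient than in wild-type cells and that of ribosome genes higher. Some members, such as Pcna and Mad2l1, go the other way, and no single gene passed the adjusted interaction test. The lowest point is Rpl30 at log2 difference -2.33, which was at 0.00347 FPKM in 1 term diff library and did not pass.

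Of 19 glycolysis genes 3 passed (15.8%, against 9.45% of all genes tested). The glucose transporter Slc2a3 rose (log2 difference 0.68; adjusted p = 0.0506 without stem-like 1, 0.0869 without stem-like 2, 0.0729 without term diff 1 and 0.0701 without term diff 2) and Hk2 (log2 difference -0.61; adjusted p = 0.121 without stem-like 1, 0.121 without stem-like 2 and 0.123 without term diff 1; adjusted p = 0.0591 after quantile normalization) and Pfkm (log2 difference -0.92; adjusted p = 0.0932 without stem-like 1, 0.0645 without stem-like 2 and 0.0836 without term diff 2) fell. Of 19 tricarboxylic acid cycle genes 1 rose (5.26%, near the 3.88% of all genes tested) and none fell (median 0.03, 10 above 0). Of 20 cholesterol genes 1 passed (5%, against 9.45% of all genes tested). This was the exporter Abca1, which fell from 2.5 and 1.85 to 0.276 and 0.254 FPKM (log2 difference -1.32 ± 0.16, adjusted p = 0.00224). Of 33 interferon-stimulated genes 1 rose (3.03%) and of 22 chaperones 1 rose (4.55%), near the 3.88% of all genes tested. Of 14 antigen presentation genes 1 fell (7.14%), near the 5.56% of all genes tested. Of 17 DNA methylation and Polycomb genes 3 fell (17.6%), above that share.

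**Figure D5:**
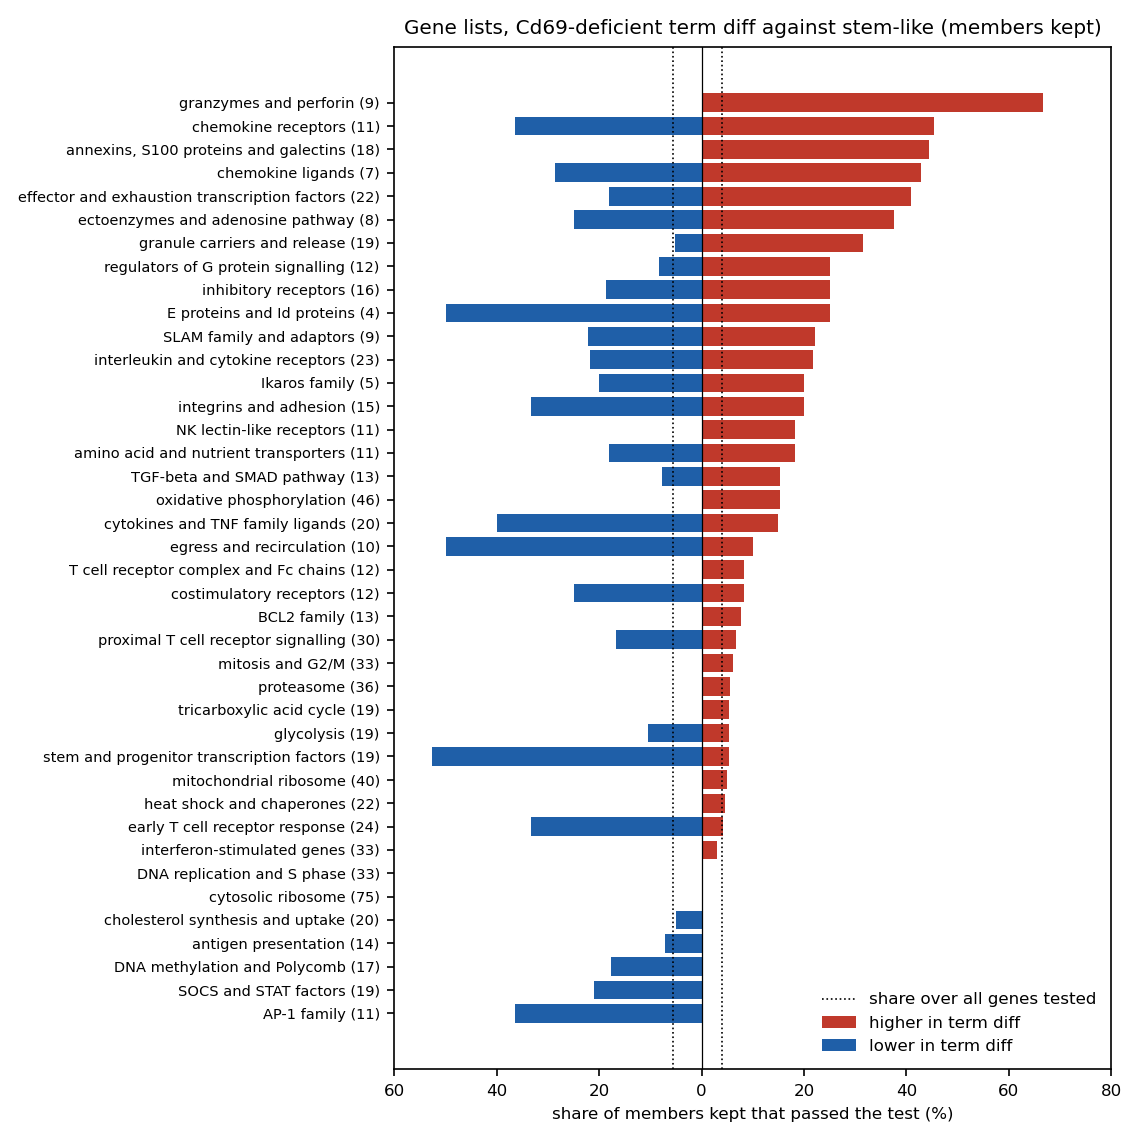
Share of the kept members of each list other than cell type markers (number in brackets) that passed the test, higher in term diff to the right (red) and lower to the left (blue), in Cd69-deficient cells. Dotted lines are the shares over all genes tested, 3.88% and 5.56%, and granzymes and perforin on the right and stem and progenitor transcription factors on the left reach farthest among the lists drawn.

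Other genes of the largest differences lay outside the lists. Among the rises, Filip1, a filamin-interacting protein, was at 1.45 and 1.86 FPKM in stem-like and 22.3 and 19.5 FPKM in term diff (log2 difference 3.05 ± 0.15, adjusted p = 4.21e-05). Adam8, a membrane protease, was at 1.6 and 1.17 and 14.2 and 11.2 FPKM (log2 difference 2.52 ± 0.17, adjusted p = 0.000145), and Fgl2, a fibrinogen-like protein that can be secreted by T cells, at 3.06 and 5.53 and 31.6 and 25.2 FPKM (log2 difference 2.5 ± 0.23, adjusted p = 0.000689). Ppp1r3b, which directs a phosphatase to glycogen, rose from 2.26 and 2.6 to 21.4 and 17.4 FPKM (log2 difference 2.57 ± 0.14, adjusted p = 6e-05). Snx9, a sorting nexin of endocytosis (log2 difference 1.75), Cebpb, a bZIP transcription factor (log2 difference 1.59), Myo10, a myosin of filopodia (log2 difference 1.55), Arsb, a lysosomal sulfatase (log2 difference 1.53), and Tmem163, a zinc transporter (log2 difference 1.7), rose with no overlap between the pairs. Plac8 rose from 11.3 and 9.83 to 59 and 53.9 FPKM (log2 difference 2.31 ± 0.37, adjusted p = 0.00754; adjusted p = 0.054 without term diff 1).

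Among the falls outside the lists, Dapl1, a gene of naive and memory T cells, was at 29.9 and 27.8 FPKM in stem-like and 0.627 and 1.04 FPKM in term diff (log2 difference -4.04 ± 0.31, adjusted p = 0.000294). Lrig1, a membrane protein that restrains growth factor receptors, was at 15.3 and 11.3 and 0.486 and 0.348 FPKM (log2 difference -3.33 ± 0.19, adjusted p = 6.28e-05), and Aff3, a nuclear protein of the AF4 family, at 11.9 and 8.72 and 0.199 and 0.198 FPKM (log2 difference -3.22 ± 0.18, adjusted p = 6.28e-05). Both of the latter were under 1 FPKM in each term diff library. Pou2f2, the octamer factor OCT-2, fell from 13.3 and 10.6 to 1.76 and 1.88 FPKM (log2 difference -2.19 ± 0.18, adjusted p = 0.000378), and Tiam1, an exchange factor of RAC1, from 12.6 and 13.4 to 2.09 and 2.54 FPKM (log2 difference -2.08 ± 0.12, adjusted p = 7.48e-05). Kcnn4, a calcium-activated potassium channel (log2 difference -2.0), Sesn3, a sestrin that restrains mTORC1 (log2 difference -1.86), Sh2b3, the adaptor LNK (log2 difference -1.68), Tbc1d4, a GTPase-activating protein of glucose transporter traffic (log2 difference -1.75), and Synpo, an actin-binding protein (log2 difference -2.48), fell with no overlap.

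A small number of genes were under 1 FPKM in both libraries of one subset and at least 5 FPKM in both of the other. There were 8 such genes low in term diff, Tcf7, Slamf6, Lrig1, Aff3, Emb, Cd83, Cyr61 and the microRNA gene Mir1901. There were 5 low in stem-like, Gzmd, Gzmf and the microRNA genes Mir1902, Mir212 and Mir466i. Cyr61, a matricellular protein, was at 6.5 and 11.4 FPKM in stem-like and 0.444 and 0.28 FPKM in term diff (log2 difference -2.83 ± 0.23, adjusted p = 0.000378). The 4 microRNA genes rest on at most 2 implied fragments a library, since a single fragment of a short transcript gives a large FPKM, and no level is drawn from them.

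Promoter letters were counted in the 250 bases upstream of RefSeq starts (GRCm38.p6), for 260 of the 380 higher and 386 of the 544 lower genes with a window. Windows on 1 chromosome were not used, so genes there count as having none. AP-1 letters (TGANTCA) stood in 13.5% of the higher, 5.44% of the lower and 5.02% of all genes kept, and in 7.82% of all 27025 genes with a window. T-box letters (GGTGTGA, either strand) stood in 6.15%, 2.59%, 3.25% and 3.84%, and TCF/LEF letters (CTTTGA, either strand) in 14.6%, 14%, 12.6% and 15.8%. RUNX letters were found in 14.2%, 16.1%, 13.2% and 15.9%, and E-box letters (CACCTG, either strand) in 19.6%, 19.2%, 17% and 19.4%. These shares are descriptions without a test, and a window may hold several motifs. Of the 40 largest rises 28 had a window and 6 of these held AP-1 letters (21.4%), and of the 40 largest falls 27 had a window and 1 held them (3.7%).

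The windows of 3 of the 6 rises that held AP-1 letters are printed with those letters in capitals. They are Havcr2 (chr11:46454681-46454930, plus strand, first letter 200 bases before the start), Fgl2 (chr5:21372423-21372672, plus strand, 16 bases before) and F2r (chr13:95618467-95618716, minus strand, 204 bases before).
Havcr2: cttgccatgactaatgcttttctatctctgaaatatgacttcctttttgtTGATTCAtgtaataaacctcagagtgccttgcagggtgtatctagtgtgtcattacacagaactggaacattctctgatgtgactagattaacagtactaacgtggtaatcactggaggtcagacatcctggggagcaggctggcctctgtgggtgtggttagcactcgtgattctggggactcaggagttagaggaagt
Fgl2: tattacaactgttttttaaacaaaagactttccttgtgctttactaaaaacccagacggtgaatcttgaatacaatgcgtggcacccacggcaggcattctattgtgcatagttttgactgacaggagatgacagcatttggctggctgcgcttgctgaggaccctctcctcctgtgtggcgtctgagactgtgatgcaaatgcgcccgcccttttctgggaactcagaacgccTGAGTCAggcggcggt
F2r: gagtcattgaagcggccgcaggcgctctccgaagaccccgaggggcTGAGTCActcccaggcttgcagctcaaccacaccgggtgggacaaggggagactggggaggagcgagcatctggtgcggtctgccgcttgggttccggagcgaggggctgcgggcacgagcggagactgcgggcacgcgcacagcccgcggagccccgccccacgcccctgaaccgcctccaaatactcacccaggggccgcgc
The matches lie at different distances from the start. Gzmb, printed above, Osgin1 and AA467197 also held the letters. Of the 11 AP-1 genes kept 4 fell, none rose and 7 did not pass, and a link to these windows was not tested. The letters are a description, and nothing is drawn from them about binding.

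The subset difference was compared with that in wild-type cells. Of the 380 higher genes 353 had the same sign in wild type and 257 also passed there, and of the 544 lower genes 534 and 383, while none passed in the opposite direction. In wild type 1278 genes passed (13.1% of those tested), 708 higher (7.24%) and 570 lower (5.83%). The interaction, which tests whether the subset difference differs between genotypes, passed for 3 of 9782 genes (0.0307%) in limma, 2 higher (0.0204%) and 1 lower (0.0102%), and 889 had an unadjusted p under 0.05. The interaction was -0.08 for Tcf7, -0.50 for Slamf6, -0.23 for Havcr2, -0.32 for Entpd1 and -0.40 for Gzmb on the log2 scale, with adjusted p from 0.562 to 0.922. A call in one genotype alone is therefore not shown to be particular to it.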

How the data were processed

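RNA from sorted AH1 tetramer-positive CD8+ T cells had been made into stranded total RNA libraries from low input and read single-end, per the labels' protocols. The authors deposited 1 gene table per library, with expression in FPKM and a confidence interval. Cufflinks 2.2.1, TopHat 1.3.2, Bowtie2 2.3.4, bcl2fastq 2.20 and the build mm10 are listed in the submitters' processing notes, and the annotation, strand setting and total behind the FPKM are not given in the sources used here. These are not read counts, so no count test was used. FPKM spreads a gene's signal over all transcripts, and a single fragment of a small RNA gives a large value.

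Tables were joined by symbol and locus, and 3 genes with a status other than OK were left out. Genes with at least 1 FPKM in 2 of the 8 libraries were kept. Differences were tested with limma 3.58.1 in R 4.3.3 on log2(FPKM + 1), two-sided, over all 8 libraries as 4 group means with a trended prior, which leaves 4 residual degrees of freedom. Implied fragments are the square of 2 times the FPKM over the distance to its upper limit. Adjusted p-values are Benjamini-Hochberg over all 9782 genes. The method was tested on simulated data. Replicate pairs were compared and none held the same library. Same-numbered libraries of the Cd69-deficient subsets did not deviate together (r = -0.157 across genes), so no block was used.

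Members and gene lists were chosen with earlier results of these data known. Named were Cd69, the 40 largest rises and 40 largest falls that averaged at least 5 FPKM in a subset without overlap (not all are described), list members past the threshold, up to 4 abundant members per list that did not pass, genes below 1 FPKM in one subset and at least 5 in the other, the 20 most abundant genes per subset, and the genes past the interaction test. S1pr1, Csf1r, Foxp3, Rpl30, Gp49a and Cxcr3 were named outside this rule or after their values were seen. Sequences are RefSeq's (GRCm38.p6), matched by symbol. Some genes that the rule names are not reported here.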

Additional observations from a re-analysis of the deposited data

Results flagged for a closer look

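The 3 genes below had a subset difference that differed between genotypes by the adjusted interaction test of limma. Mir133a-2, a microRNA gene, was at 54.4 and 62.8 FPKM in wild-type stem-like and listed at 0 in the other 6 libraries (interaction 5.89, adjusted p = 7.6e-06). Each of these values corresponds to 1 implied fragment. Rnu73b, a small nucleolar RNA gene, was listed at 0 in both wild-type stem-like libraries and lay at 385 to 1560 FPKM elsewhere, from 1 to 4 implied fragments a library (interaction -10.34, adjusted p = 0.0055). Defb13, a defensin gene, was at 2.81 and 3.24 FPKM in wild-type stem-like, 1 implied fragment each, and listed at 0 elsewhere (interaction 2.01, adjusted p = 0.036). In all 3 the values that set the difference are those of the wild-type stem-like libraries. In Cd69-deficient cells Rnu73b was at 1220 and 829 FPKM in stem-like and 813 and 448 FPKM in term diff, which do not overlap and rest on 1 to 3 implied fragments, and the other 2 genes were listed at 0.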

How the results depend on the processing

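The counts of genes higher and lower in term diff were 380 and 544. They became 30 and 40 after rescaling to an equal sum of FPKM (15 and 20 of them among the original genes), 230 and 315 without a filter, 608 and 833 at a threshold of 0.1, and 138 and 187 with a log2 difference of at least 1, and the lower count became 341 with a filter of 5 FPKM. Leaving out 1 Cd69-deficient library gave 109 to 169 higher and 180 to 306 lower genes. Leaving out 1 wild-type library gave 376 to 379 and 498 to 509. Other pseudocounts, median-of-ratios scaling, quantile normalization, another prior, or a fit of the 4 Cd69-deficient libraries alone kept both counts within 1.5 times. The interaction count of 3 became 8 with a pseudocount of 5, 51 after rescaling to an equal sum, 18 without both wild-type replicate 2 libraries (chosen after seeing the data), and 2 to 11 without 1 library. The 1278 wild-type calls became 752 without a filter, 152 after rescaling to an equal sum, 325 without both wild-type replicate 2 libraries, 395 with a log2 difference of at least 1, and 608 to 1099 without 1 library. With the replicate number as a block the counts were 300, 446 and 2, with crossed pairing (chosen after seeing the data) 335, 497 and 2.

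Of the 140 genes named here that passed, none changed sign in any fit, and 112 no longer passed after rescaling to an equal sum, the cause of which was not tested beyond its shift of the median. Without a filter 29 lost their call, and with the block 3 did, Tgfbr2 and Tgif1 (both adjusted p = 0.0627) and Slc6a6 (adjusted p = 0.0723). Of the genes that did not pass, the following changed sign, with the range over leaving out 1 Cd69-deficient library given last. Ets1 was at -0.17 by quantile normalization and -0.27 by equal sum (-0.01 to 0.19), Nr4a3 at -0.30 and -0.29 (-0.11 to 0.26), Tigit at -0.12 and -0.20, Lck at -0.09 and -0.12, and Itgal at -0.01 and -0.17. Pdcd1 was at -0.03 by quantile normalization, and Fasl and Mki67 at -0.04 by equal sum. By median-of-ratios scaling Cd8a was at 0.01 (-0.21 to 0.16) and Il2rg at 0.03 (-0.12 to 0.11). Over the leave-outs alone Cd3e ran from -0.14 to 0.02, Cd4 from -0.82 to 0.24, Ctla4 from -0.36 to 0.15, Gzma from -1.08 to 0.08 and S1pr4 from -0.31 to 0.06.

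With 2 libraries a group, small differences could not be told from the spread, and genes of a few implied fragments carry large counting error. Depth in reads was not in the tables used here.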

Other observations

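Of 13 kept BCL2 family genes in Cd69-deficient cells 1 passed (7.69%, near the 9.45% of all genes tested). It was Bcl2l11, which encodes the pro-apoptotic protein BIM, at 10.4 and 9 FPKM in stem-like and 19.8 and 14.9 FPKM in term diff (log2 difference 0.77 ± 0.16, adjusted p = 0.0236). Its call was lost without stem-like 1, without stem-like 2 and without term diff 1. Of 13 TGF-beta pathway genes 2 rose and 1 fell (23.1% passed, against 9.45% of all genes tested). The rises were Itgav, given above, and Tgfbr2. The repressor Tgif1 fell (31.2 and 27.6 to 20.3 and 16.9 FPKM, log2 difference -0.64 ± 0.16, adjusted p = 0.047). The Tgif1 call was lost without any 1 of the Cd69-deficient libraries. The receptor chain Tgfbr2 rose from 13.8 and 12.1 to 21 and 19.5 FPKM (log2 difference 0.6 ± 0.14, adjusted p = 0.0359), and its call was lost without either wild-type term diff library and without any 1 Cd69-deficient library (adjusted p = 0.105 without stem-like 1, 0.164 without stem-like 2, 0.149 without term diff 1 and 0.114 without term diff 2). Among 11 nutrient transporters 2 rose and 2 fell (36.4% passed, against 9.45% of all genes tested). Slc7a5, a carrier of large neutral amino acids, rose (5.58 and 5.74 to 9.86 and 8.28 FPKM; adjusted p = 0.147 without stem-like 1, 0.0954 without stem-like 2 and 0.123 without term diff 1) and Slc7a1, a carrier of arginine and lysine, fell (9.45 and 7.59 to 4.2 and 3.96 FPKM, log2 difference -0.9 ± 0.14, adjusted p = 0.00652; adjusted p = 0.0583 without stem-like 1). Slc16a10, a carrier of aromatic amino acids, rose (0.169 and 0.608 to 1.71 and 1.85 FPKM, log2 difference 1.02 ± 0.23, adjusted p = 0.0277; adjusted p = 0.18 without stem-like 1, 0.106 without term diff 1 and 0.136 without term diff 2), and Slc6a6, the taurine carrier, fell (8.07 and 8.13 to 5.76 and 5.36 FPKM, log2 difference -0.47 ± 0.12, adjusted p = 0.0451; adjusted p = 0.202 without stem-like 1, 0.158 without stem-like 2, 0.111 without term diff 1 and 0.187 without term diff 2).

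Actb, beta-actin, was at 932 and 980 FPKM in stem-like and 1438 and 1542 FPKM in term diff, and Tmsb4x, thymosin beta 4, which binds actin monomers, at 647 and 786 and 1325 and 1408 FPKM. Both were higher in each term diff library, and neither passed (log2 difference 0.64 ± 0.33, adjusted p = 0.274, and log2 difference 0.94 ± 0.33, adjusted p = 0.126). With no trend in the prior both passed, with adjusted p = 0.0263 and 0.0333.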
